A study of Mus musculus with 62 samples.

Results

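Voluntary wheel running was accompanied in mouse quadriceps by a list of 2280 regions that the authors called hypoacetylated at histone H3 lysine 27 (H3K27ac). Of these, 788 regions (34.6%) overlapped an H3K27ac peak of the quadriceps (Quad) of resting mice and no H3K27ac peak of the soleus (Sol), by at least 1 bp. They are called Quad-only hypoacetylated regions here. Both calls came from H3K27ac itself: the 788 regions were chosen by the contrast of exercised (Ex) against sedentary (Sed) Quad and by the peak calls in 2 resting muscles. The lower level in Ex, the peak in Quad and its lack in Sol are therefore given as description. The other hypoacetylated regions overlapped peaks of both muscles (1227 regions), of Sol alone (50) or of neither (215).

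The study profiled H3K27ac and H3K4me2 by ChIP-seq in 2 replicates of each group, all from C57BL/6 mice. EDL (extensor digitorum longus), Quad, Sol and Dia (diaphragm) were wild-type muscles of sedentary mice, Sed and Ex were Quad of young adult wild-type males without and with a running wheel for about a month, and mTg and Wt were Quad of sedentary mice with a Pgc1a transgene under the muscle creatine kinase promoter and of wild-type littermates. Each Quad sample was 1 muscle of 1 animal, while EDL, Sol and Dia samples were pooled from several animals, and Ex mice were taken within hours of their last bout. Accessible chromatin (ATAC-seq) came from pooled Quad of sedentary wild-type mice, and the mediator subunit MED1 and the transcription factor NFAT were profiled in 1 pooled library per muscle, MED1 in all 4 muscles and NFAT in Quad and Sol.

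H3K27ac marks active enhancers and promoters, and H3K4me2 marks enhancers and promoters whether or not they are active. Enhancers are stretches of regulatory DNA, often far from the gene they act on, that are bound by transcription factors where chromatin is open. Quadriceps and EDL of mice are rich in fast, glycolytic fibres, soleus holds many slow, oxidative fibres, and the diaphragm is mixed. Endurance exercise shifts fast fibres towards oxidative metabolism, and PGC1α, the coactivator encoded by Pgc1a, is a known driver of oxidative genes. In whole muscle, fewer nuclei carrying a mark and less mark per nucleus cannot be told apart.

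The histone mark libraries held between 6.41 M and 24.2 M tags (M for mega), with a median of 19.5 M. Both Ex H3K27ac libraries were shallower (18.5 M and 17.1 M) than both Sed libraries (23.7 M and 20.7 M), as were both mTg libraries (11.7 M and 12.7 M) against Wt (14.9 M and 14.1 M), and the part of depth in the differences between these groups was not tested. The muscle labels were checked on myosin genes. No H3K27ac peak had Myh7, the slow myosin, as its nearest gene in Quad, EDL, Sed, Ex, Wt or mTg, while Sol and Dia had 3 each. Myh4, the fastest myosin, was the nearest gene of at least 1 peak in all 8 lists.

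Almost all of the Quad-only hypoacetylated regions lay away from promoters. By the annotation in the deposited lists, 520 (66%) were intragenic, 261 (33.1%) were intergenic and 7 (0.888%) were promoters, which spanned 1000 bp upstream to 100 bp downstream of a start site. Promoters were 11.2% of all 40949 Quad H3K27ac peaks, 2.89% of Quad peaks with no Sol peak and 1.32% of all hypoacetylated regions. The median distance to the nearest start site was 28232 bp, 63 regions (7.99%) lay within 5000 bp of one, and 130 (16.5%) lay more than 100000 bp away. For Quad peaks with no Sol peak these values were 27660.5 bp, 14.7% and 16.1%. Introns held 475 of the regions, and 17 were annotated to exons. The host gene could be read from the annotation for 512 of the intragenic regions, and it differed from the nearest gene for 188 of these, so the gene name given with a region is a label of position. Widths ran from 501 to 11458 bp with a median of 2131 bp, against 3654 bp for the 1227 hypoacetylated regions with peaks in both muscles and 910 bp for the 14114 Quad peaks that had no Sol peak.

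The sequences at 3 of the regions show what the open chromatin there held. Each is the 300 bp around the centre of the strongest ATAC peak in one of the regions named for the pathway lists, picked for a strong ATAC signal and a match to one of the words searched, from GRCm38.p6 (the mm10 build of the files), plus strand. Capitals mark the words. Mstn encodes myostatin, the secreted inhibitor of muscle growth, and its window at chr1:53037614-53037913 held the word bound by MEF2, a family of factors that drives muscle genes. The window of Mef2a (chr7:67402479-67402778; a member of the MEF2 family) held the nuclear receptor half-site AGGTCA on the minus strand. Ppp1r3a encodes the muscle subunit that brings protein phosphatase 1 to glycogen, and its window at chr6:14712208-14712507 held an E-box, CAGCTG, the word bound by MyoD-type factors.
Mstn: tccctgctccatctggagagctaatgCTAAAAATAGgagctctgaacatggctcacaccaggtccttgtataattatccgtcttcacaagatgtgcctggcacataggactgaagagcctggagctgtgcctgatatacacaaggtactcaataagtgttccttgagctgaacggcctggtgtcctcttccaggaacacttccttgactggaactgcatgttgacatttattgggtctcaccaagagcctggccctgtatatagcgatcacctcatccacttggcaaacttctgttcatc
Mef2a: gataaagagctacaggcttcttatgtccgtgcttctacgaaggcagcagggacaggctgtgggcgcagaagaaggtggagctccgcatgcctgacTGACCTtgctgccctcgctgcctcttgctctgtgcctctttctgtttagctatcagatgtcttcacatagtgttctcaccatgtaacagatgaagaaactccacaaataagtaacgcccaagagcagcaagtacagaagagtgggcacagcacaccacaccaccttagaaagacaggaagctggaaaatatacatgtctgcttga
Ppp1r3a: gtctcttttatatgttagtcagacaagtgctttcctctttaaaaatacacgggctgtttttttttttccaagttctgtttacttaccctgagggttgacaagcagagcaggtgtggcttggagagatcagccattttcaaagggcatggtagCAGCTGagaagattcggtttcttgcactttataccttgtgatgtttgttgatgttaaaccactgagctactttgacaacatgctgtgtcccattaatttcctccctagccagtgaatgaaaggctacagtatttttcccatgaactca

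All 3 windows lay in regions whose acetylation was lower in both Ex libraries. Levels are log2 normalized tags per region as the authors deposited them for the hypoacetylated list, and a difference is on the log2 scale. The authors called the list at a 2-fold change, and the deposited levels are not the values of that call. They are taken to be a regularized logarithm, which would draw differences towards 0, but the sources used here do not state it, nor whether these levels were balanced (quantile normalized) between libraries, so the size of a difference holds on the deposited scale alone. The Mstn region (chr1:53036845-53039310, 23563 bp upstream of the gene) had levels of 7.95 and 7.67 in the 2 Sed libraries and 7.14 and 6.58 in Ex, a mean difference of -0.95. At the region upstream of Prkag3, which encodes the AMPK gamma subunit found mainly in fast glycolytic muscle, they were 8.76 and 8.06 in Sed and 7.63 and 7.48 in Ex, a difference of -0.86. For the Mef2a region the values were 8.06 and 7.40 in Sed and 7.16 and 6.68 in Ex. In each of these regions the 2 groups did not overlap, which the choice of the regions fixes.

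Over the 788 regions the mean level was 6.86 ± 0.17 in Sed and 6.14 ± 0.071 in Ex (SD of the library means, n = 2 libraries each), and the mean difference was -0.71. The difference ranged from -1.25 to -0.40, and 26 regions (3.30%) fell by 1 or more. All 788 regions had both Ex values below both Sed values. Over the 42010 merged Sed and Ex H3K27ac regions, 5.43% were in the hypoacetylated list, and no more is read from the count since it is how the regions were chosen. The mean of library 1 minus library 2 was 0.23 in Sed and 0.10 in Ex. These are signed means in which regions of opposite sign cancel, so single regions could differ more between replicates. In 254 of the 788 regions Ex library 1 lay below Ex library 2. The 1227 hypoacetylated regions with peaks in both muscles had higher levels, with 8.28 in Sed and 7.47 in Ex, and a mean difference of -0.81.

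The peak calls tell the same contrast in another way. In 580 of the 788 regions (73.6%) an H3K27ac peak was called in Sed and none in Ex, 206 had a peak in both, and 2 had one in Ex alone. Among the hypoacetylated regions with peaks in both muscles, the share called in Sed alone was 32.7%. The 208 regions with an Ex peak were wider (median 3416 bp) and had a higher Sed level (mean 7.91) than the 580 without (1861 bp and 6.48).

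The largest fall was at an intron of Eya4, which encodes a transcriptional coactivator. In this region (chr10:23198201-23203383, intron 3) the levels were 8.08 and 8.20 in Sed and 7.08 and 6.69 in Ex, a difference of -1.25. Only 1457 of its 5183 bp lay in Quad peaks, and by level per kb the Quad peak stood at percentile 12.8 of its list. Next came a pair of regions upstream of Pced1b that lie side by side. The first (chr15:97173456-97179748) went from 9.07 and 8.74 in Sed to 7.98 and 7.40 in Ex, a difference of -1.22, and the second (chr15:97167506-97172801) from 8.49 and 8.40 to 7.54 and 6.96, a difference of -1.19. Intron 31 of Rictor, the defining subunit of the kinase complex mTORC2, held a region (chr15:6784179-6793817) with 9.57 and 9.28 in Sed and 8.55 and 7.87 in Ex, a difference of -1.21. The remaining regions among the 10 with the largest falls were nearest to Rps14, Clvs1, 4921525O09Rik, Rcvrn, Clec16a and Gm10823, with differences between -1.15 and -1.12. In the Clec16a region 635 of 4062 bp lay in Quad peaks, and the Quad peak stood at percentile 2.0. Of these 10 regions, 9 also carried an H3K27ac peak in EDL, and 2 carried one in Dia.

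The highest Sed levels per region were found at Smox, Pdcd2l, Bpgm, Dopey2 and the Rictor region. These regions were between 7794 and 11458 bp wide, against a median of 2131 bp, and a level per region grows with width. By level per kb their Sed peaks stood between the percentiles 64.8 and 79.1 of all Sed peaks. Smox encodes spermine oxidase, an enzyme of polyamine breakdown, and the region in its first intron (chr2:131501716-131513173) had 10.35 and 9.88 in Sed and 9.28 and 9.23 in Ex. The region labelled Pdcd2l lay in intron 9 of Gpi1, which encodes the glycolytic enzyme glucose-6-phosphate isomerase, and its levels were 9.88 and 9.73 in Sed and 9.0 and 9.05 in Ex. Bpgm encodes bisphosphoglycerate mutase, and its intronic region went from 9.75 and 9.60 to 8.91 and 8.85. Over the 5 regions the difference ran from -1.21 to -0.78.

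In the glycolysis and glycogen list of 37 genes, 8 genes were nearest to 10 of the 788 regions (1.27%), against 0.319% of the Quad peaks with no Sol peak and 1.18% of all hypoacetylated regions. Their median difference was -0.75, against -0.70 over all 788. Ppp1r3c and Ppp1r3a, which both target protein phosphatase 1 to glycogen, had 1 and 2 regions. At Ppp1r3c (chr19:36766181-36770386) the Sed libraries stood apart, at 8.26 and 7.29, and Ex was at 6.84 and 6.86. The larger Ppp1r3a region (chr6:14710370-14714006) went from 8.38 and 8.02 to 7.58 and 7.20. Phkb and Phka1, subunits of the kinase that switches on glycogen breakdown, and Pgk1, Pfkm and Ugp2 had 1 region each, of which the Pfkm region lay in an intron of Senp1.

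Regions near growth and insulin signalling genes were 7 (0.888%), against 0.538% of the Quad peaks with no Sol peak and 0.965% of all hypoacetylated regions. Acvr2a, a receptor for myostatin and activins, was the nearest gene of 3 regions, all of them intergenic and between 513920 and 733497 bp upstream. Of these, the nearest to the gene (chr2:48298769-48301610) went from 7.19 and 6.84 in Sed to 6.08 and 5.97 in Ex, a difference of -0.99. Akt2, a kinase of insulin signalling, had a region in intron 4 with 7.79 and 7.50 in Sed and 6.98 and 6.71 in Ex. A region in the first intron of Acvr2b, the other type II receptor for myostatin, was labelled with Exog as the nearest gene and differed by -0.62. Deptor, an inhibitor of mTOR, had the smallest difference of the list, -0.48, and the median of the 7 was -0.86.

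The list of transcription regulators of fibre type and activity took the most regions, 16 (2.03%), near 10 of its 62 genes, against 1.25% of the Quad peaks with no Sol peak and 2.32% of all hypoacetylated regions. Eya4 had 3, and Maf, Sox6, Rora and Tead1 had 2 each. The stronger Maf region (chr8:115638937-115645391; Maf is a bZIP transcription factor) had 8.78 and 8.76 in Sed and 7.80 and 7.81 in Ex, a difference of -0.96 with little spread in either group. Sox6 represses slow fibre genes, and its stronger region (chr7:115806932-115809554) had 7.36 and 7.10 in Sed and 6.36 and 6.51 in Ex. Rora, the gene of a nuclear receptor, was the nearest gene of 2 regions but hosted 5. Eya1, Rxrg, Foxo1, Mef2a and Mef2c had 1 each, with differences from -0.81 to -0.51. The median of the 16 was -0.64.

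Excitation-contraction coupling genes were nearest to 4 regions (0.508%), Z-disc and scaffold genes to 4 (0.508%), fast fibre contractile genes to 2 (0.254%), both at Mylk4, a myosin light chain kinase, neuromuscular and membrane genes to 1 (0.127%) and slow fibre contractile genes to none. Among the 1227 hypoacetylated regions with peaks in both muscles, the Z-disc list took 26 (2.12%), the coupling list 15 (1.22%) and the fast fibre list 12 (0.978%). Among Quad peaks with no Sol peak these shares were 0.305%, 0.262% and 0.149%. The Jph1 region (chr1:17102917-17108012; junctophilin 1 holds the triad membranes together) had 8.57 and 7.99 in Sed and 7.71 and 7.42 in Ex. Cacna2d1, a subunit of the calcium channel, had 2 intronic regions with differences of -0.74 and -0.69. The Dmd region in the first intron of dystrophin had 6.95 and 6.23 in Sed against 5.84 and 6.11 in Ex. Of the other Z-disc genes, Pdlim3, Xirp2 and Ankrd1 differed by -0.62, -0.53 and -0.50, and the Mylk4 regions by -0.73 and -0.51. The region labelled Kcnj11, the pore subunit of the ATP-sensitive potassium channel, lay in an intron of Nomo1 and differed by -0.63.

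Oxidative and lipid genes were nearest to 4 regions (0.508%), against 0.198% of the Quad peaks with no Sol peak and 0.658% of all hypoacetylated regions. Pdk4, the kinase that slows pyruvate entry into the mitochondria, had a pair. The upstream one (chr6:5507451-5511450) went from 8.89 and 8.61 in Sed to 8.0 and 7.89 in Ex, and the one inside the gene from 7.50 and 7.57 to 6.72 and 6.56. The region labelled Ucp3, a mitochondrial carrier protein, lay in intron 24 of C2cd3 and went from 8.28 and 8.24 to 7.65 and 7.33. Together the 9 lists hold the nearest genes of 48 regions (6.09%). No region lay nearest to any of 44 markers of endothelial cells, fibroblasts, smooth muscle and pericytes, leukocytes, adipocytes, Schwann cells or satellite cells, while 1 of all 2280 hypoacetylated regions and 187 of the 40949 Quad H3K27ac peaks did.

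**Figure D1:**
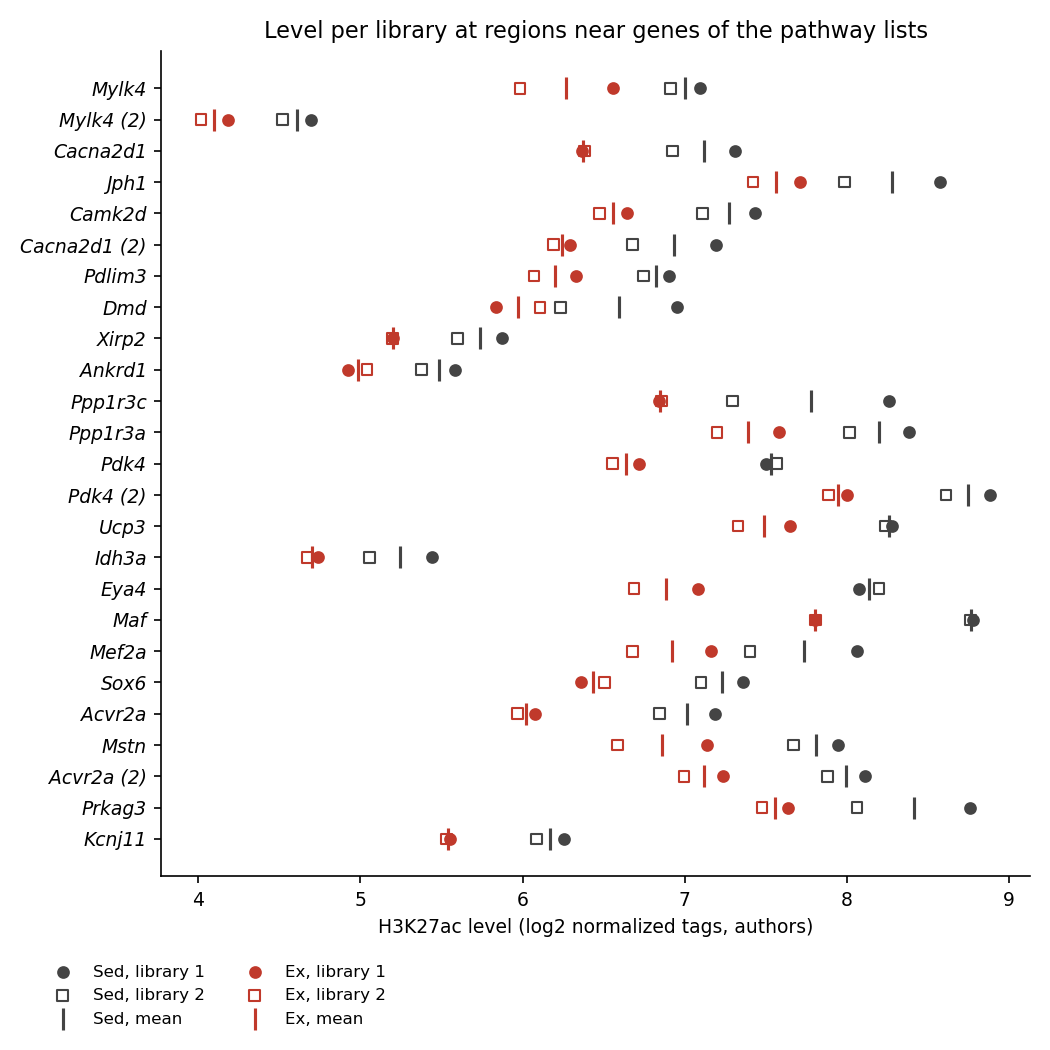
H3K27ac level (log2 normalized tags, horizontal axis) in each Sed (grey) and Ex (red) library at the regions near pathway genes, at most 4 per list by size of fall, with library 1 as filled circles, library 2 as open squares and the mean of the 2 libraries as a bar. Both Ex values lie left of both Sed values in every row, as the choice of the regions requires, and the closest are those of Dmd, 6.23 in Sed against 6.11 in Ex.

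The regions were scattered over 658 nearest genes, of which 560 had 1 and 98 had 2 or more. Those 98 genes held 228 regions (28.9%). Dlg1, which encodes a membrane scaffold protein, had 5 over 115376 bp. The strongest fall there was at chr16:31625143-31627523, from 7.94 and 7.69 in Sed to 6.76 and 6.81 in Ex, a difference of -1.03. Atp8a1 (a phospholipid flippase), Gpd2 (the mitochondrial glycerol-3-phosphate dehydrogenase), Pced1b, 4921525O09Rik and Mir6412 were each nearest to 4. Of the 4 Gpd2 regions, 2 were also in the list of regions hypoacetylated in mTg, while 0 of the Pced1b regions were. The 4 labelled Mir6412 lay in introns of Btbd9.

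**Figure D2:**
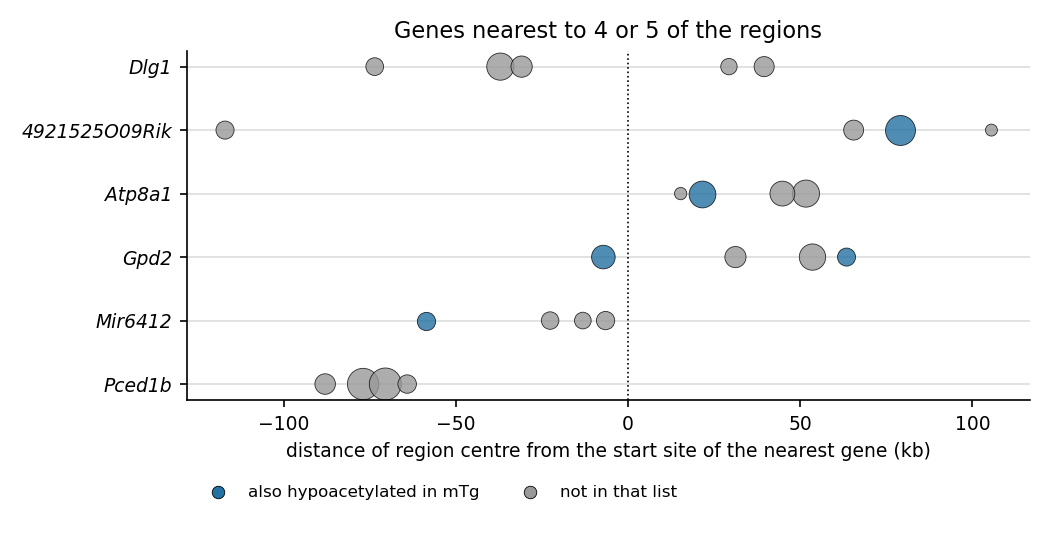
Distance of the region centre from the start site of the nearest gene (kb, horizontal axis; negative is upstream) for 6 genes nearest to 4 or 5 of the regions, with the area of a point growing with the square of the fall in Ex and blue for regions also hypoacetylated in mTg. The Pced1b and Mir6412 regions all sit upstream of the start site, and those of Atp8a1 all sit downstream.

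Next, the regions were followed into muscles and groups that the rule did not use. In EDL, the other fast limb muscle, 691 regions (87.7%) overlapped an H3K27ac peak, against 42.8% of all Quad peaks with no Sol peak and 99.3% of the hypoacetylated regions with peaks in both muscles. In Dia the share was 29.6% (233 regions), against 25% and 87.9%. Of the 788 regions, 469 (59.5%) had a peak in EDL and none in Dia, 222 had both, 86 had neither, and 11 had one in Dia alone. The Mstn region belonged to those with both. Its H3K27ac stood 3.65 and 3.67 log2 units above input in the EDL libraries and 2.19 and 2.34 in Dia. The Eya4 and Rictor regions had an EDL peak and no Dia peak.

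Where a peak was present, its strength was ranked within its own list. The median level above input on the log2 scale was 2.45 for the EDL peaks at the regions, near the 2.36 of all EDL peaks. For the Dia peaks there it was 1.93, against 2.16 for all Dia peaks. By level per kb, the EDL peaks stood at the median percentile 50.9 of their list and the Dia peaks at 31.9. Levels were normalized within each list, so these are ranks within a muscle and no test between muscles.

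Sol also had no called H3K4me2 peak at most of the regions, and its H3K4me2 level outside called peaks was not measured here. An H3K4me2 peak was called in Sol at 99 regions (12.6%), in Dia at 144 (18.3%), in EDL at 427 (54.2%) and in Quad at 502 (63.7%). The Sol share was 20.5% for all Quad peaks with no Sol H3K27ac peak and 56.8% for the hypoacetylated regions with H3K27ac in both muscles. In the first of these sets the Dia, EDL and Quad shares were 21.5%, 35.9% and 44.2%, and in the second 51.3%, 78.2% and 79.1%. Of all Quad H3K27ac peaks, 64.1% had a Quad H3K4me2 peak, close to the share at the regions. Of the 99 regions with a Sol H3K4me2 peak, 97 had a Quad H3K4me2 peak too, and 405 regions (51.4%) had one called in Quad and none in Sol. An H3K4me2 peak in Quad and none in Sol was found at 26.1% and 27.4% of the same sets. The Smox region was among the 99, with H3K4me2 at 2.54 and 2.59 above input in Quad and 1.69 and 1.97 in Sol.

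**Figure D3:**
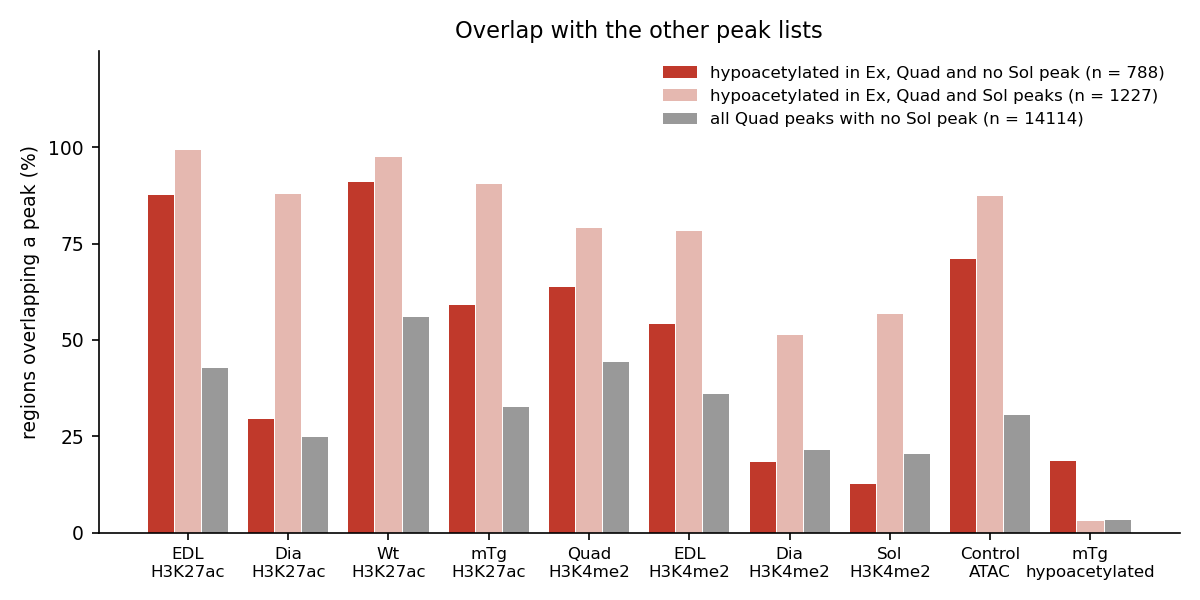
Share of regions (%, vertical axis) that overlap a peak of each list on the horizontal axis, for the 788 Quad-only hypoacetylated regions (red), the 1227 hypoacetylated regions with peaks in Quad and Sol (pink) and all 14114 Quad peaks with no Sol peak (grey). The red bars stand at 87.7% for EDL and 29.6% for Dia H3K27ac, and at 18.5% for the mTg hypoacetylated list, where the pink and grey bars are at 3.18% and 3.27%.

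The width of the regions and the strength of their peaks bear on these shares. A wide region overlaps a peak by 1 bp more readily than a narrow one, and the regions were wider (median 2131 bp) than Quad peaks with no Sol peak (910 bp) and narrower than hypoacetylated regions with peaks in both muscles (3654 bp). With at least 50% of the region covered, 79.8% were in EDL peaks, 15.7% in Dia peaks and 5.46% in Sol H3K4me2 peaks. These values were not computed for the comparison sets, so they do not show how much of the differences between sets goes with width.

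The regions that changed in the Pgc1a transgenic Quad overlapped this set. Of the 788, 146 (18.5%) overlapped a region that the authors called hypoacetylated in mTg against Wt, and 17 (2.16%) one called hyperacetylated. Over all 55872 merged Wt and mTg H3K27ac regions, the shares were 1.51% hypoacetylated and 3.27% hyperacetylated. Among Quad peaks with no Sol peak, 3.27% were in the hypoacetylated list, and among hypoacetylated regions with peaks in both muscles, 3.18%. The hyperacetylated list took 2.03% and 3.34% of these sets. Seen from the other side, 150 of the 844 regions hypoacetylated in mTg (17.8%) overlapped one of the 788, and of the 198 Ex hypoacetylated regions that overlapped an mTg hypoacetylated region, 146 (73.7%) were Quad-only. The Sed and Wt libraries are different ones, so the 2 contrasts share no control library.

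In those 146 regions the mean level in the mTg list was 6.68 ± 0.11 in Wt and 5.82 ± 0.052 in mTg (SD of the library means, n = 2), and the difference ranged from -2.13 to -0.39. The 5 largest falls in mTg were at Mir582, Abcc8, Ccl25, Smox and Vmn2r-ps11. The region labelled Mir582, in intron 3 of Pde4d, a phosphodiesterase that breaks down cAMP, had 8.64 and 8.75 in Wt and 6.76 and 6.37 in mTg, a difference of -2.13, and in the exercise list 9.47 and 8.83 in Sed and 8.32 and 7.87 in Ex. The region labelled Abcc8, the sulfonylurea receptor subunit of the ATP-sensitive potassium channel, lay within Ush1c, and its levels were 8.73 and 8.85 in Wt and 6.92 and 6.89 in mTg. The Smox region had 9.96 and 10.03 in Wt and 8.41 and 8.20 in mTg.

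All 3 Acvr2a regions were in the mTg hypoacetylated list. Their values were 6.31 and 6.57 in Wt against 5.48 and 5.36 in mTg at chr2:48298769-48301610, 7.30 and 7.47 against 6.51 and 6.59 at chr2:48136569-48140308, and 6.07 and 6.18 against 5.01 and 5.19 at chr2:48079292-48081932. The Prkag3 region had 8.14 and 8.45 in Wt and 7.38 and 7.13 in mTg. Jph1, Phkb, Rxrg and the larger Ppp1r3a region were the other list members, which made 8 of the 48 regions near pathway genes. The Mstn region was in neither mTg list.

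For the 17 regions that were hyperacetylated in mTg, the opposite directions in the 2 contrasts are fixed by the choice of the lists. The share of 2.16% was below the 3.27% of all merged Wt and mTg regions. It was near the 2.03% of Quad peaks with no Sol peak, so nothing is read from the count. The mean level of the 17 regions was 6.59 ± 0.15 in Wt and 7.43 ± 0.047 in mTg (n = 2), while in Ex they stood 0.65 below Sed. Slc25a36, a mitochondrial carrier of pyrimidine nucleotides, had 2 of them, both upstream, and the nearer (chr9:97135434-97136381) had 6.10 and 6.37 in Wt, 7.66 and 7.64 in mTg, 6.18 and 6.20 in Sed and 5.67 and 5.27 in Ex. Sgcd, a sarcoglycan of the dystrophin complex, had 1 in intron 2. These genes were chosen after their values were seen. In 16 of the 17 the mTg region covered at least 50% of the exercise region. The exception was the one labelled Ucp3, where only 189 bp were shared, so that the 2 lists describe different stretches there.

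**Figure D4:**
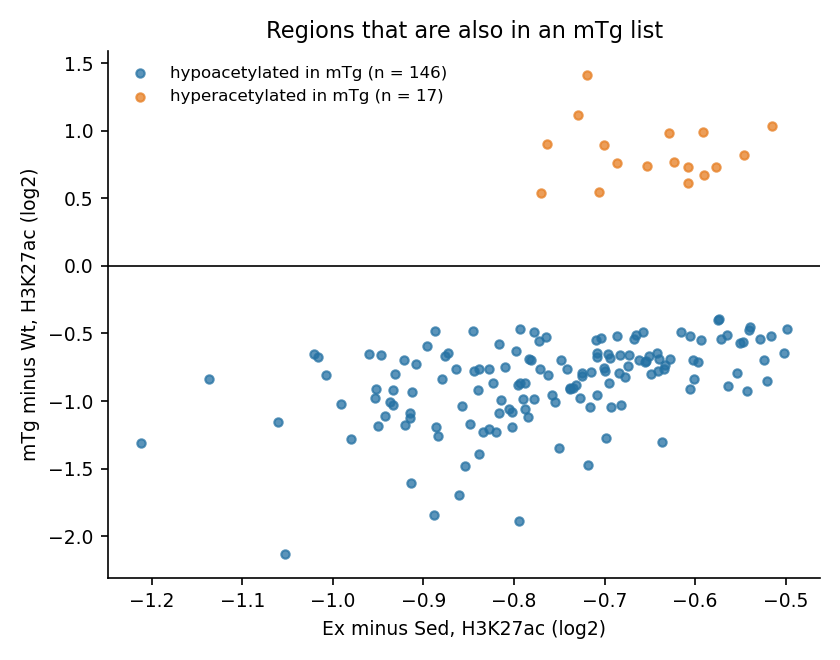
Difference in H3K27ac level (log2) of Ex minus Sed (horizontal axis) and of mTg minus Wt (vertical axis) for the regions that overlap an mTg differential region, each point 1 region and the mean of 2 libraries per group, blue for the 146 hypoacetylated and orange for the 17 hyperacetylated in mTg. The side of the zero line is set by the list, and mTg minus Wt reaches from -2.13 to -0.39 and from 0.54 to 1.41.

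Regions in the mTg hypoacetylated list carried called peaks of Dia and Sol less often in count than the rest, a difference given here without a test. A Dia H3K27ac peak was found at 24 of the 146 (16.4%) and at 209 of the other 642 regions (32.6%), and a Sol H3K4me2 peak at 11 (7.53%) and 88 (13.7%). Their median distance to the nearest Sol H3K27ac peak was 20654 bp, against 13260 bp. The EDL shares were 91.8% and 86.8%. The 146 were also wider (median 2814 against 2047 bp), with a higher Sed level (7.28 against 6.76).

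Outside the differential lists, 716 regions (90.9%) had an H3K27ac peak in Wt and 466 (59.1%) in mTg. For all Quad peaks with no Sol peak the shares were 55.9% and 32.7%, and the Wt list was longer (49010 peaks against 36169). For a comparison of levels, Wt and mTg peaks were paired where each covered at least 50% of the other, and levels per kb were centred on the median of each library. This was possible for 249 peaks at the regions, since it needs a peak in both groups and leaves out the regions without an mTg peak. In 110 of them (44.2%) both mTg libraries lay below both Wt libraries, and in 46 (18.5%) above. Over all 17448 paired peaks the shares were 32.5% and 30.9%. The median difference at the regions was -0.13 (medians of -0.28 and -0.36 in mTg, -0.27 and -0.04 in Wt), so that Wt replicate 2 lay apart. With Wt replicate 2 left out, 47.0% of the regions and 43.7% of all paired peaks were lower.

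H3K4me2 at the regions was lower in Ex than in Sed by a small difference that rested on 1 library. An H3K4me2 peak was called at 313 regions (39.7%) in Sed and at 209 (26.5%) in Ex, against 28.7% and 25% of all Quad peaks with no Sol peak. In the 106 regions where the peaks could be paired as above, both Ex libraries were below both Sed libraries in 38 (35.8%) and above in 10 (9.43%), while over all 21618 paired peaks the shares were 26.9% and 28.0%. The median difference was -0.13, and 0 of the 106 fell by 1 or more. The centred levels had medians of -0.83 and -0.84 in Ex and -0.83 and -0.51 in Sed. Without Sed replicate 2, 38.7% of the regions and 38.6% of all paired peaks were lower, and with levels taken above the input of each group, 28.3% and 29.9%, an alternative chosen after seeing the data.

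Most of the regions held a site of open chromatin in resting Quad. An ATAC peak lay in 560 (71.1%), of which 492 had 1, 67 had 2 and 1 had 3. The share was 87.2% for the hypoacetylated regions with peaks in both muscles and 30.6% for all Quad peaks with no Sol peak. Per kb the regions held 0.310 ATAC peaks, close to the 0.309 of all Quad peaks. This was above the 0.271 of Quad peaks with no Sol peak and the 0.256 of the hypoacetylated regions with peaks in both muscles. The strongest ATAC peak in a region had a median signal of 7.12 normalized tags. It was above the 5.89 at Quad peaks with no Sol peak. It was below the 9.18 at all Quad peaks and the 10.3 at hypoacetylated regions with peaks in both muscles. The Mstn window printed above had 22.1, and the Eya4 region with the largest fall held no ATAC peak. ATAC and Quad H3K4me2 were both present at 365 regions (46.3%), ATAC alone at 195, H3K4me2 alone at 137 and neither at 91.

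Short words were counted in the 300 bp around the strongest ATAC peak of each region, on both strands. Shares are given for the MEF2 word, the E-box CAGCTG, the half-site AGGTCA and the AP-1 word TGANTCA, and matches of different words may overlap. The MEF2 word was in 38 of the 560 windows (6.79%), against 3.26% of the 4323 windows at Quad peaks with no Sol peak and 2.89% of the 23438 windows at all Quad peaks. For the half-site the shares were 32.1%, 25.9% and 21.9%. AP-1 went the other way, with 10.7%, 16.2% and 12.7%, and the E-box was similar, with 28.6%, 30.4% and 27%. All hypoacetylated regions together had 6.68% for MEF2 and 31.4% for the half-site, both close to the Quad-only regions. Their shares were 12.3% for AP-1 and 31.5% for the E-box. The windows had a median GC content of 48.3%, against 50% and 54%, and its part in the shares was not tested. A word in a window is a description of its letters and not of a bound factor.

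**Figure D5:**
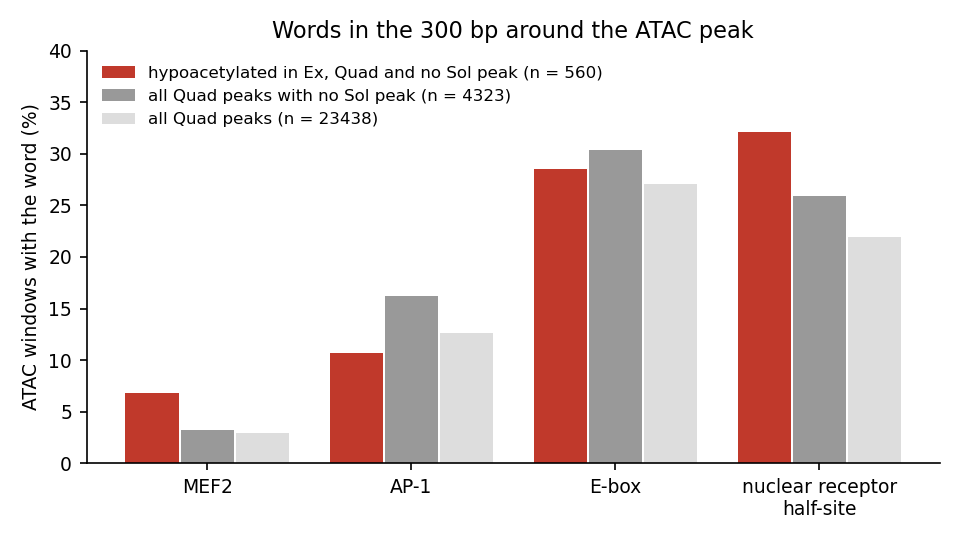
Share of the 300 bp ATAC windows that hold each word (%, vertical axis) for the 560 Quad-only hypoacetylated regions with an ATAC peak (red), the 4323 Quad peaks with no Sol peak (grey) and all 23438 Quad peaks with one (light grey). The red bars are the highest for MEF2 (6.79%) and the half-site (32.1%) and the lowest for AP-1 (10.7%).

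A Quad MED1 peak lay in 7 of the 788 (0.888%), against 6.68% of the hypoacetylated regions with peaks in both muscles, 0.453% of Quad peaks with no Sol peak and 3.76% of all Quad peaks, and MED1 peaks of Sol, Dia and EDL lay in 7, 4 and 1. One of the 7 with Quad MED1 was the Acvr2a region at chr2:48079292-48081932. NFAT peaks of Sol, a list of 39661, lay in 28 regions (3.55%), against 5.46%, 1.84% and 2.74% of the same sets, and NFAT peaks of Quad, a list of 485, in 0 (95% Wilson upper bound 0.485%). These factors were measured in 1 library per muscle, so the values have no replicate check.

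At the edges of the rule, the region with the least Quad overlap (chr14:60703783-60704641, nearest to Spata13) shared 23 bp with a Quad peak and had 4.60 and 4.87 in Sed and 4.32 and 4.24 in Ex. The one closest to a Sol peak (chr10:14028876-14030159, in Hivep2) lay 41 bp from it and had 6.24 and 5.93 in Sed and 5.50 and 5.59 in Ex. Just outside, a region at chr6:108466320-108470157 labelled Mir7661 overlapped a Sol peak by 114 bp, and its levels were 8.71 and 8.09 in Sed and 7.63 and 7.70 in Ex. Only 19 of the 788 had a Sol peak within 1000 bp, the median distance was 14317 bp, and 478 (60.7%) lay more than 10000 bp from one. The 7 promoter regions were those of Tspan8, Hmox2, Map3k7cl, 1810013A23Rik, Mdga1, Wnt4 and Scn3b, named here after their values were seen, of which the Mdga1 promoter was hyperacetylated and the Tspan8 promoter hypoacetylated in mTg.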

How the data were processed

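H3K27ac and H3K4me2 ChIP-seq lists of 8 groups with 2 libraries each, 4 lists of differential H3K27ac regions, the control ATAC list and 6 MED1 and NFAT lists were used. Samples were grouped by their titles. Per the labels, the authors aligned reads with Bowtie (1.2) to mm10 and made tag directories and peaks with HOMER. The authors called differential regions at 2-fold and an adjusted p of 0.05. Levels are log2 values per region that the authors made with DESeq2 and deposited, taken to be its regularized logarithm and normalized within each file. The methods describe a balanced (quantile) normalization that the deposited headers do not name. The authors' adjusted p-value served only as a stricter threshold (0.001). The deposited ATAC signal is normalized tags per peak, and its ratio to the local region and the MED1 and NFAT peak score, both deposited, were not otherwise used. The authors' fold changes were not used, and 5 interval files of another build were left out. No other columns of per-sample values were in these files.

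From these, overlaps (1 bp), nearest genes and levels were computed with Python 3.11.15, pandas 2.3.3 and numpy 2.4.6, and host genes were read from RefSeq (GRCm38.p6), whose chromosome lengths hold all regions. Overlap, pairing and the non-overlap call were tested on simulated data. The deposited levels are no counts, so no count test was run, and no p-value is given. Certain genes, sequences and a further word searched are not reported here. Levels in separate lists were compared only through paired peaks. The pathway lists, cell type lists and regions were chosen with earlier results of these data known. Named regions were the 10 with the largest fall, up to 4 per pathway list, the 5 with the highest Sed level, the 5 with the largest fall in mTg, the regions of the genes with 4 or 5, and those at the edges of the rule. Alternatives were the overlap, peak strength, distance to Sol peaks, library left out, level scale and window size.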

Additional observations from a re-analysis of the deposited data

How the results depend on the processing

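The results are shares and differences without a test, with 2 libraries a group, so error beyond the spread of the libraries is not known. No paired analysis was possible because the results come from no test, and a mean difference is the same with and without pairs. Of 46 alternatives, 26 stayed within the main value's error or within 1.5 times a count. For a share, this error was a 95% Wilson interval over regions, which takes regions as independent and leaves out the spread between libraries. The 26 include both H3K4me2 alternatives named next, in which the comparison with all paired peaks turned. The count is therefore no measure of how stable the results are. The comparison of H3K4me2 with all paired peaks turned: the median difference at the regions was 0.01 without Sed replicate 2 (-0.13 as reported), and above own input, an alternative chosen after seeing the data, 28.3% of the regions and 29.9% of all paired peaks were lower. With the authors' adjusted p under 0.001, 151 regions remained, with a mean difference of -0.91. Of the 788 regions, 91 lay in an mTg hypoacetylated region with an adjusted p under 0.001. The share over all merged regions was not computed at that threshold, so nothing is read from this count. Leaving out 1 library moved the mean difference between -0.83 and -0.60. Shares with at least 50% of the region covered were 79.8% for EDL, 15.7% for Dia, 5.46% for Sol H3K4me2 and 30.5% for Quad H3K4me2. With peaks of at least 4-fold they were 83.5%, 25.8%, 10.3% and 47.5%. The stronger ATAC peaks by signal lay in 35.5% of the regions. The MEF2 word was in 11.2% of whole regions, against 14.5% of all whole hypoacetylated regions and 3.85% of whole Quad peaks with no Sol peak. A wider region holds a word more readily, and the median widths were 2131, 2688.5 and 910 bp, so these shares are not at like width. For the share with lower H3K4me2 in Ex, levels not divided by width gave 53.8%, against 26.2% of all paired peaks. Leaving out 1 library gave 38.7% to 70.8%, against 36.8% to 38.7% of all paired peaks. For lower H3K27ac in mTg these were 53.0%, against 33.7%, and 47.0% to 61.4%, against 40.5% to 43.7%. A call of 1 library against 2 is met more readily by construction.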
